A study of Mus musculus with 24 samples.

Results

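Apoe and 9 further genes of lipoprotein handling were followed through 2 mouse cell lines: the apolipoproteins Apoe, Apod and Clu, the lipase Lpl, the receptors Lrp1, Lrp10, Lrp12, Vldlr and Scarb1, and the receptor chaperone Lrpap1. They were chosen by name, as genes of the protein that the study's title concerns and of its relatives and receptors, and make up 10 of the 15830 genes with reads in either line. C2C12 is a myoblast line that forms muscle fibres in culture, and NSC34 is a motor-neuron-like hybrid line. In the co-culture arm the lines had been grown together for 3 days, and in the control arm each had been grown alone, with 6 libraries for each line in each arm and a wild-type genotype given for all 24. Total RNA was sequenced on the MinION, a nanopore instrument that reads long molecules. How the co-cultured lines were separated is not in the labels, nor whether replicates came from separate cultures, and none names an APOE3 treatment. The p-values therefore measure only the spread between these libraries, which may be technical.

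Apolipoproteins coat lipid particles and act as ligands for cell-surface receptors. Apoe binds receptors of the LDL receptor family, among them Lrp1 and Vldlr, which carry particles into the cell or pass on signals. Lpl splits the triglycerides of such particles at the vessel wall and supplies muscle with fatty acids, while Scarb1 takes cholesterol esters from high-density lipoproteins without taking up the particle. Lrpap1 (also called RAP) keeps the receptors free of ligand while they fold in the endoplasmic reticulum. Lrp4, a relative of Lrp1, is the agrin receptor of the muscle fibre, through which acetylcholine receptors are clustered.

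Co-cultured C2C12 libraries held 143502 to 547071 reads and C2C12 controls 121154 to 658075, whereas co-cultured NSC34 libraries held 2807 to 30314 and NSC34 controls 88 to 4624. The line labels were checked against markers. Skeletal muscle markers took 2.95 ± 0.134% of co-cultured C2C12 reads and 2.64 ± 0.170% of C2C12 control reads (SD, n = 6 each). Neuronal markers took 0.0207 ± 0.00114% and 0.0223 ± 0.00270% of the same libraries, against 0.247 ± 0.0695% in co-cultured NSC34 and 0.203 ± 0.123% in NSC34 controls (SD, n = 6). Muscle markers were in turn scarce in NSC34 (20 reads in co-culture and 4 in controls), with Myog, Des, Acta1 and Ckm at 0. Of the motor neuron genes on that list, Mnx1, Lhx3, Slc18a3 and Slc5a7 were at 0 in NSC34. Chat, the enzyme that makes acetylcholine, had 1 read in co-cultured NSC34 and 0 in NSC34 controls, and Isl1, a transcription factor of motor neurons, had 2 and 1, while each was at 0 in C2C12. Of the other neuronal markers on the list, Stmn2, Nefm, Nefh and Map2 were also at 0 in each NSC34 arm. Stmn2 went against the line labels. Its mean level in C2C12 was 103 CPM (read counts scaled to the library total) in co-culture and 116 CPM in controls. The higher neuronal share of NSC34 thus holds for the sum and not for every marker. The NSC34 depth limits what these counts can show.

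Reads of 9 of the 10 genes were found in C2C12, and Clu (clusterin, a secreted chaperone, chr14:65968483-65981547) had none. The 10 genes together took 0.0356 ± 0.00323% of co-cultured C2C12 reads and 0.0357 ± 0.00354% of control reads (SD, n = 6 each). Their summed share thus differed by less than the spread between libraries, while single genes stood higher or lower. Levels below are CPM of all reads, that is read counts scaled to the total of their library. Positions are those of the mouse build GRCm38.

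A pair of sequences is shown because transcript models, and not only gene totals, were counted for Apoe and Scarb1. The first is the stretch of 250 bases before the start of Apoe-206 (chr7:19699189-19699438, minus strand, GRCm38.p6, from RefSeq), the model that took most Apoe reads. The second is exon 12 of Scarb1-201 (chr5:125281105-125281233, minus strand, GRCm38), the exon that Scarb1-202 skips. Its 126 coding bases end in the stop codon, which is in capitals. Nothing is in capitals in the Apoe sequence, since none of the 4 motifs searched on both strands was found there. They were TATAAA, the Sp1 core GGGCGG, the E-box CACGTG and the CCAAT box CCAAT. Of 32851 RefSeq windows of that length, 12.4% hold the first, 32.7% the GC motif, 6.02% the E-box and 33.8% the CCAAT box.
Apoe promoter: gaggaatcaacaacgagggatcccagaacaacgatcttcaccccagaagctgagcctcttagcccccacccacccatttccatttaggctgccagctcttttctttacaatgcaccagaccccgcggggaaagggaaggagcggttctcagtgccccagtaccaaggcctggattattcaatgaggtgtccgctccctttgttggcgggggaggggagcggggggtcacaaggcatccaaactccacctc
Scarb1 exon 12: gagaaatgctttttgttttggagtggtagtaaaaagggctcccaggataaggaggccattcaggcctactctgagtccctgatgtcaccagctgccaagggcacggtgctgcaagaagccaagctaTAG

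In C2C12 none of the 10 genes passed the test of co-culture against control. Lpl stood higher in co-culture and Lrp1 lower, each by about the same amount on the log2 scale and each in most libraries, but neither was past the threshold once all genes were taken into account. Apoe and Lrp10 lay above the control median in all 6 co-cultured libraries at a few reads per library. The share of all genes with every co-cultured library on the same side of the control median was not taken. Such patterns, here and below, are therefore description only. The test was edgeR's quasi-likelihood test with a Benjamini-Hochberg adjusted p under 0.05. It had enough reads for 2570 genes and called 37 of them, 1.44% (0.817% higher and 0.623% lower). Of the 10 genes 3 had enough reads to be tested (Lpl, Lrp1 and Lrpap1), with 0 called and 2 at an unadjusted p under 0.05, where 14.7% of all tested genes were. DESeq2 called 0 of them as well, giving no adjusted p for Lpl and Lrpap1. An exact two-sided permutation test of the CPM of all reads over the 12 libraries called 0 of 10108 genes with at least 10 reads. With 12 libraries its splits are limited. Even the muscle markers Mb and Ckm, whose groups stood fully apart, had an exact p of 0.00216 each and an adjusted p of 0.264. The 0 calls of the exact test and its adjusted p-values given below therefore cannot decide whether a member changed. At an unadjusted p under 0.05 the exact test had 8.25% of the 10108 genes, Lpl and Lrp1 included. No member's groups stood fully apart, against 0.821% of those 10108 genes.

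**Figure D1:**
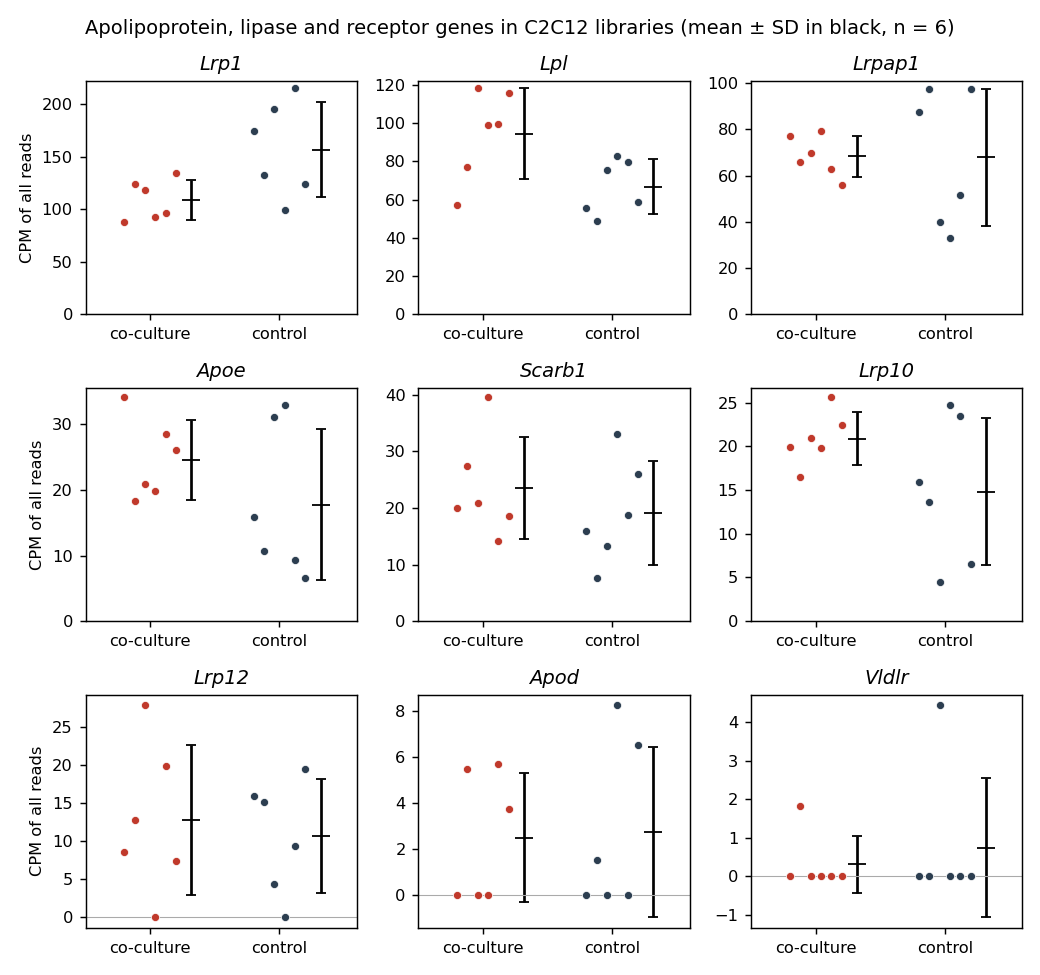
Level of 9 genes in each C2C12 library (vertical axis, CPM of all reads, a scale of its own for each gene), with 6 co-cultured libraries in red on the left of each panel and 6 controls in dark blue on the right, and the mean ± SD in black. Groups overlap in each panel; Lrp1 lies lower and Lpl higher in most co-cultured libraries. Clu, with 0 reads, is not drawn.

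Apoe (chr7:19696109-19699188, minus strand) is the ligand that the study's title names. Its co-cultured C2C12 libraries 1 to 6 held 12, 10, 3, 3, 10 and 7 reads, and its controls 1 to 6 held 2, 7, 7, 4, 2 and 1. The co-cultured libraries ran from 18.3 to 34.2 CPM of all reads with a median of 23.5, and the controls from 6.51 to 33.0 with a median of 13.3. All 6 co-cultured libraries lay above the control median, and 4 controls lay below all co-cultured libraries, while controls 3 and 4 lay within the co-cultured range. The mean was 24.6 ± 6.09 in co-culture and 17.7 ± 11.5 in controls (SD, n = 6 each), a difference of 6.88 CPM (exact p = 0.219, two-sided, adjusted p = 0.778). Without the filter on low counts, edgeR gave a log2 fold change of 0.74 (SE 0.413, adjusted p = 0.611 over 15439 genes). It ran from 0.47 to 1.01 with 1 library left out, always above 0. In NSC34 no Apoe read was found.

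Apod (chr16:31296192-31314808, minus strand), a small lipid carrier of the lipocalin family rather than a receptor ligand, had 6 reads in co-cultured C2C12 and 3 in controls. Those 6 reads lay in co-cultured libraries 2, 5 and 6, and the 3 in controls 2, 4 and 6, so each arm had 3 libraries with none. Too few reads were there for the exact test. Clu had 0 of 3309635 C2C12 reads, and a limit of 3 reads leaves room for at most 0.906 CPM. Intervals and limits of this kind cover counting error only.

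Lpl (lipoprotein lipase, chr8:68880491-68907448, plus strand) had 20, 42, 17, 15, 35 and 31 reads in co-cultured C2C12 libraries 1 to 6, against 7, 32, 17, 10, 17 and 9 in control libraries 1 to 6. Co-cultured libraries ran from 57.0 to 118 CPM of all reads with a median of 99.3, and controls from 48.6 to 82.5 with a median of 67.0. Co-cultured libraries 3 to 6 lay above every control, co-cultured libraries 1 and 2 lay within the control range, and 2 controls lay below every co-cultured library. The mean was 94.4 ± 23.6 in co-culture and 66.8 ± 14.2 in controls (SD, n = 6 each; exact p = 0.0455, adjusted p = 0.589). The edgeR log2 fold change was 0.51 (SE 0.224, 95% interval 0.05 to 0.98, unadjusted p = 0.0324, adjusted p = 0.275). Without control 2, the deepest library, it was 0.33 (edgeR adjusted p = 0.604).

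Lrp1 (chr10:127538161-127621148, minus strand), a large endocytic receptor for Apoe and for protease complexes, had 31, 68, 17, 14, 34 and 36 reads in co-cultured C2C12 libraries 1 to 6. The control libraries 1 to 6 had 22, 87, 44, 12, 46 and 19. Co-cultured libraries ran from 88.3 to 134 CPM of all reads with a median of 108, and controls from 99.0 to 216 with a median of 153. Every co-cultured library was under the control median and 3 of them were under every control, while 3 controls lay above every co-cultured library. The mean was 109 ± 19.1 in co-culture and 157 ± 45.4 in controls (SD, n = 6 each; exact p = 0.0390, adjusted p = 0.577). The edgeR log2 fold change was -0.51 (SE 0.188, 95% interval -0.90 to -0.12, unadjusted p = 0.0125, adjusted p = 0.18).

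By transcript length, taken as the mean over a gene's transcript models weighted by their reads, Lrp1 ranked 13 among 2561 tested genes with a known length. In these libraries the longest genes stood lower in co-culture. The 50 longest genes had a median log2 fold change of -0.21, with 36 of them below 0 and 10 lower than Lrp1, and 1 passed. The median of all was 0.00. With a trend on transcript length removed from each library Lrp1 stood at -0.29 on the log2 scale (edgeR adjusted p = 0.475). The part of length in the Lrp1 difference was not tested beyond this.

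Because Lpl and Lrp1 lay on opposite sides of 0, their ratio within a library was also taken, a choice made after seeing the values and therefore described without a test. There were 0.933 to 1.62 Lrp1 reads per Lpl read in co-cultured libraries, with a median of 1.08, and 1.20 to 3.14 in controls, with a median of 2.65. The ranges overlapped. Against Lrpap1, Lrp1 had 1.15 to 2.40 reads per Lrpap1 read in co-culture, with a median of 1.62, and 1.27 to 4.89 in controls, with a median of 2.50. The 2 ratios share the Lrp1 reads.

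Among the smaller receptors, Scarb1 (SR-BI, chr5:125277087-125341094, minus strand) had 7, 15, 3, 6, 5 and 5 reads in co-cultured libraries 1 to 6 and 2, 5, 3, 4, 4 and 4 in controls 1 to 6. Its co-cultured range of 14.2 to 39.6 CPM of all reads overlapped the control range of 7.60 to 33.0. The means were 23.5 ± 8.99 and 19.1 ± 9.14 (SD, n = 6 each; exact p = 0.424, adjusted p = 0.871). Lrp10 (chr14:54464137-54471497, plus strand), an LDL-receptor relative of the endosome and trans-Golgi network, had 7, 9, 3, 3, 9 and 6 reads in co-cultured libraries 1 to 6 and 2, 9, 1, 3, 5 and 1 in controls 1 to 6. It was at 16.5 to 25.6 CPM in co-culture, a narrow range, and at 4.44 to 24.8 CPM in controls. Its means of 20.9 ± 3.05 and 14.8 ± 8.40 CPM differed by 6.06 (SD, n = 6 each; exact p = 0.134, adjusted p = 0.727). As with Apoe, all 6 co-cultured libraries lay above the control median.

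Lrp12 (chr15:39870589-39943994, minus strand), a further relative with LDL-receptor repeats, had 3, 7, 4, 0, 7 and 2 reads in co-culture and 2, 10, 1, 0, 2 and 3 in controls. The co-cultured mean was 12.8 ± 9.88 CPM of all reads and the control mean 10.7 ± 7.49 (SD, n = 6 each; exact p = 0.699, adjusted p = 0.951). Each arm held a library with no read, and the highest library was co-culture 3. Vldlr (the very-low-density lipoprotein receptor, chr19:27216484-27254231, plus strand), which adult muscle is known to express, had 1 read in co-cultured library 2 and 1 in control library 3. Without the filter the edgeR log2 fold changes were 0.63 for Scarb1 (SE 0.426), 0.63 for Lrp10 (SE 0.443) and 0.20 for Lrp12 (SE 0.521), with adjusted p = 0.611, 0.611 and 0.913.

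Lrpap1 (chr5:35091501-35105766, minus strand), the chaperone of these receptors, had 27, 36, 10, 12, 22 and 15 reads in co-cultured libraries 1 to 6, against 11, 64, 9, 4, 11 and 15 in controls 1 to 6. Its co-cultured libraries ran from 56.0 to 79.2 CPM of all reads with a median of 67.7. The controls ran from 33.0 to 97.6 with a median of 69.5. All 6 co-cultured libraries lay between 3 low controls (3, 4 and 5) and 3 high controls (1, 2 and 6). The means were 68.4 ± 8.79 in co-culture and 67.8 ± 29.6 in controls (SD, n = 6 each; exact p = 0.968, adjusted p = 1). The edgeR log2 fold change was -0.07 (SE 0.233, 95% interval -0.56 to 0.41, adjusted p = 0.953). The interval leaves room for a change of either sign, and the sign did turn in other settings (0.06 in limma-voom and 0.01 without the filter).

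**Figure D2:**
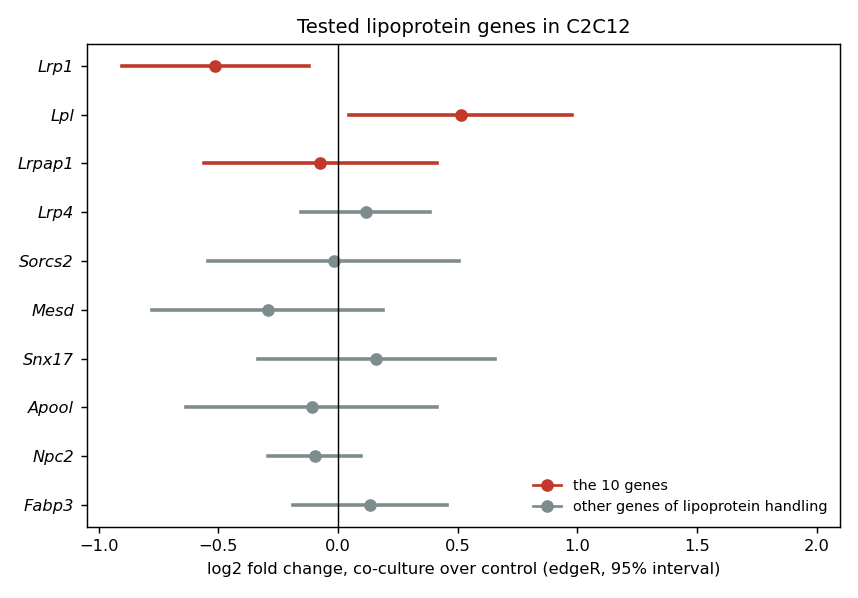
Log2 fold change of co-culture over control in C2C12 (horizontal axis, edgeR, point and 95% interval) for the 3 members that were tested, in red, and 7 other tested genes of lipoprotein handling, in grey. The intervals of Lrp1 (-0.90 to -0.12) and Lpl (0.05 to 0.98) leave out 0 before any adjustment, and those of the other 8 genes hold it.

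Other genes of the pathway did not pass either. Of 20 further apolipoprotein genes only Apool, a protein of the mitochondrial inner membrane that bears the family's name, passed the edgeR filter (-0.11, edgeR adjusted p = 0.922). Of 13 other LDL receptor relatives and sorting receptors 2 were tested and 0 passed. Lrp4 had a log2 fold change of 0.12 (SE 0.130, 95% interval -0.15 to 0.39) and Sorcs2, a sorting receptor, one of -0.02 (edgeR adjusted p = 0.784 and 0.992). Of 8 chaperones and adaptors 2 were tested and 0 passed: Mesd, a chaperone of LDL-receptor relatives, at -0.29, and Snx17, which returns Lrp1 from endosomes, at 0.16 (edgeR adjusted p = 0.643 and 0.847). None of 12 further genes of lipases and their partners passed the edgeR filter, and of 15 lipid transporters Npc2 (-0.10) and Fabp3 (0.13) were tested and did not pass (edgeR adjusted p = 0.734 and 0.791). The exact test took in more genes of these lists and called none of them, but with its limited splits it called no gene at all. With 1.44% of all genes tested in edgeR passing, 0 of these 7 genes is near the background.

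Cell markers that moved along with co-culture were followed beside these values. Of 14 skeletal muscle markers 12 were tested, 3 rose (Mb, Ckm and Myog, by 0.73, 0.64 and 0.43 on the log2 scale) and 0 fell, with a median of 0.23 against 0.00 over all tested genes. The summed muscle share was 2.83 to 3.19% in co-culture and 2.37 to 2.88% in controls. The part of muscle differentiation in the Lpl and Lrp1 values was not tested. In bulk RNA, fewer cells of a type and less RNA per cell cannot be told apart. Adipocyte markers, of interest because adipocytes also make Lpl, summed to 9.14 to 33.0 CPM of all reads in co-culture (4 of 10 genes with reads) and 0 to 33.0 in controls (3 of 10), with Adipoq, Plin1, Plin4, Cfd, Cidec and Lep at 0. Macrophage markers, a known source of Apoe, summed to 4 reads in co-culture and 3 in controls, with Lyz2, Ptprc, Adgre1, C1qa, C1qb, C1qc and Tyrobp at 0. Glial markers, another source of Apoe, had 22 reads in co-culture and 21 in controls, with Gfap, Sox10, Aqp4 and Aldh1l1 at 0. Neuronal markers in C2C12 summed to 190 to 222 CPM in co-culture and 189 to 248 in controls, with Chat, Slc18a3, Slc5a7, Isl1, Mnx1 and Lhx3 at 0 in each.

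Levels in C2C12 were also divided by transcript length, in kilobases, to set the genes in order. The length was the mean over a gene's transcript models, weighted by their reads, so the order also depends on how reads were assigned to models. It was 13279.6 bases for Lrp1 and 4241 for Vldlr, whose 2 reads lay on models of 7971 and 511 bases. Whether read counts rise with length on this long-read instrument was not tested, so the order below holds only under that division. In co-culture Lpl stood at 23.4 ± 5.85 CPM per kb, Lrpap1 at 23.0 ± 2.96, Apoe at 18.2 ± 4.51, Scarb1 at 9.52 ± 3.65, Lrp1 at 8.22 ± 1.43, Lrp10 at 4.93 ± 0.720, Lrp12 at 3.11 ± 2.41 and Apod at 1.44 ± 1.62 (SD, n = 6). In controls Lrpap1 led with 22.8 ± 9.98, followed by Lpl at 16.5 ± 3.52, Apoe at 13.1 ± 8.50, Lrp1 at 11.8 ± 3.42, Scarb1 at 7.75 ± 3.71, Lrp10 at 3.50 ± 1.99, Lrp12 at 2.61 ± 1.82 and Apod at 1.57 ± 2.14 (SD, n = 6). Vldlr closed each order, at 0.0718 ± 0.176 in co-culture and 0.174 ± 0.427 in controls. The mean ± SD ranges of Lpl, Lrpap1 and Apoe overlapped in each arm, and so did those of Scarb1 and Lrp1. Differences between genes were not tested. Lrp1, with the most reads of the 10 genes, had the highest undivided means (109 CPM of all reads in co-culture and 157 in controls). It ranked in the middle only once levels were divided by its long mean length.

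**Figure D3:**
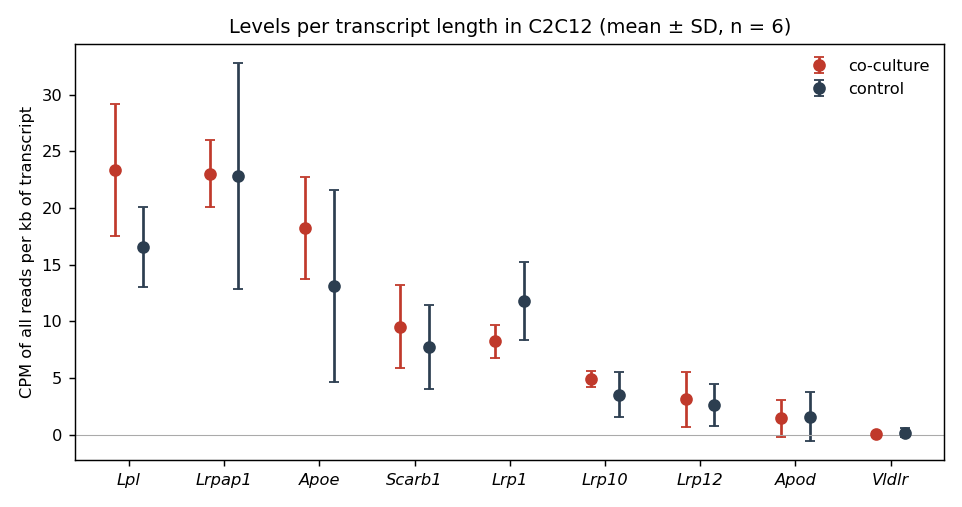
Levels per transcript length in C2C12 (vertical axis, CPM of all reads per kilobase; points are means and bars SD over 6 libraries), co-culture in red on the left of each pair and control in dark blue on the right, genes ordered by the co-cultured mean. Under this division by length, the order runs in co-culture from Lpl (23.4) to Vldlr (0.0718), and the bars of neighbouring genes overlap in most places.

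The genes whose levels ran most like the 3 tested members over the 12 C2C12 libraries were found among 2569 genes by Pearson's r of log2 CPM, as a description. They were Ptdss1 (r = 0.88) and Vps26c (r = 0.86) for Lpl, Prr13 (0.83) and Tardbp (0.81) for Lrp1, and Erp29 (0.88) and Mxra7 (0.87) for Lrpap1. Genes set side by side here were counted in the same 12 libraries, which differ in depth and in arm.

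At the level of transcripts, Apoe reads fell on 4 models that share the same 933 coding bases and differ in their ends. Apoe-206 took 54 of 68 reads (79.4%, exact Clopper-Pearson 95% interval 67.9 to 88.3%). Apoe-201 took 8, all of them in co-cultured library 5, Apoe-209 took 4 and Apoe-205 took 2. In 9 of the 11 libraries with at least 2 Apoe reads all reads were on 1 model. The exceptions were co-cultured library 1, with 10 reads on Apoe-206 and 2 on Apoe-205, and co-cultured library 5, with 2 on Apoe-206 and 8 on Apoe-201.

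Scarb1 reads were spread over more models, with all reads on 1 model in 5 of 12 libraries and on several in 7, but its main pair of models, which encode different protein ends, seldom occurred together. Scarb1-201 ends its coding sequence in exon 12, printed above, and Scarb1-202 without that exon ends downstream, the forms known as SR-BI and SR-BII. Scarb1-202 took 20 of 41 reads in co-culture and 12 of 22 in controls, and Scarb1-201 took 17 in co-culture and 7 in controls. Yet 1 of 12 libraries, co-culture 2, held reads of both models (10 on Scarb1-201 and 5 on Scarb1-202). The other Scarb1-201 reads came from co-culture 1 (7 reads), control 4 (3) and control 5 (4), in which no read was on Scarb1-202. Within a library either Scarb1-201 or Scarb1-202 was thus at 0 in all but co-culture 2, and the pooled shares do not describe a typical library. The method that assigned reads to models is not known here, and its part in the Apoe and Scarb1 counts per model was not tested, so those counts are uncertain as levels of single transcripts. The gene totals used above are sums over models and do not depend on how counted reads were split between them. The levels per kb and the length rank do depend on that split. Whether reads that matched several models were left out of the counts is not known here.

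**Figure D4:**
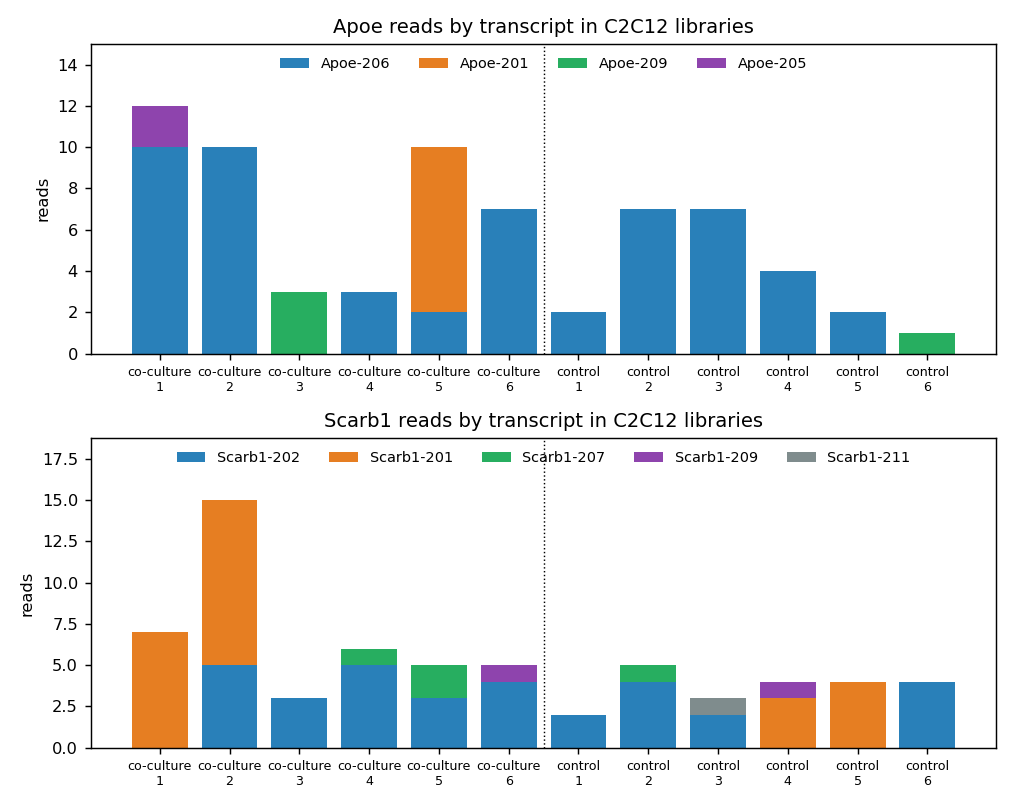
Reads of Apoe (top) and Scarb1 (bottom) in each C2C12 library (vertical axis, reads), stacked by transcript model, with co-cultured libraries 1 to 6 left of the dotted line and controls 1 to 6 right of it. Most bars show a single main colour; Scarb1-201 and Scarb1-202 occur together only in co-culture 2.

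Most Lrp1 reads, 370 of 430, were on the full-length model Lrp1-201 (14888 bases, 89 exons). Lrp1-204, a model of 3436 bases with a retained intron, took 18 of 200 reads in co-culture (9.0%, exact interval 5.42 to 13.9%) and 38 of 230 in controls (16.5%, 11.96 to 21.96%), 20 of the 38 in control 2. The Lrp1-201 model by itself stood at -0.42 on the log2 scale (edgeR adjusted p = 0.593). Lpl-201 took 239 of 252 Lpl reads and had 0.42 (edgeR adjusted p = 0.541), and Lrpap1-201 took 234 of 236 reads and had -0.06 (edgeR adjusted p = 0.998). Lrp10 and Lrp12 had reads on 1 model each. Annotated genes that overlap the members had 0 reads in C2C12.

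The lines differed most plainly in Lrp1 and Lpl. Over all libraries Lrp1 had 430 of 3309635 reads in C2C12 (130 CPM of all reads, exact interval 118 to 143) and 0 of 70865 in NSC34, where 9.21 reads would have been counted at the C2C12 share. The pooled Lrp1 level of C2C12 was 3.07-fold the limit of 3 reads over all NSC34 libraries, 42.3 CPM. The exact NSC34 interval reached 52.1 CPM and did not overlap that of C2C12. Intervals here and below pool reads over libraries and cover counting error only. Libraries of the same group differed by more than that (chi-square per degree of freedom from 1.35 to 5.74), so the pooled intervals are too narrow. Without NSC34 co-cultured library 2, which held 30314 of the NSC34 reads, the ratio to the limit was 1.76-fold. The exact NSC34 interval then reached 91.0 CPM, still below that of C2C12. Lpl had 252 reads in C2C12 (76.1 CPM of all reads, exact interval 67.0 to 86.1) and 0 in NSC34, with 5.40 reads expected at the C2C12 share. Its C2C12 level was 1.80-fold the limit of 3 reads, and the exact NSC34 interval, up to 52.1 CPM, did not overlap that of C2C12. Without NSC34 co-cultured library 2 the ratio was 1.03-fold. The exact NSC34 interval then reached 91.0 CPM and overlapped that of C2C12, so these intervals showed no Lpl difference. The edgeR fit without the filter, described below, still had Lpl past the threshold between co-cultured lines without that library (adjusted p = 0.00222).

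These ratios to the limit of 3 reads rested on co-culture. Between co-cultured C2C12 and co-cultured NSC34 they were 2.02-fold for Lrp1 and 1.62-fold for Lpl, and in controls, with 15858 NSC34 reads and a limit of 189 CPM, no difference was detectable for either by this limit. A fit over all 24 libraries had 1328 genes with enough reads, none of the 10 among them. It called 52.3% of genes between the co-cultured lines and 40.4% between the control lines. Without the filter, a setting added after seeing the data, Lrp1 and Lpl passed between the co-cultured lines (edgeR adjusted p = 8.51e-07 and 1.49e-05). Each rested on 0 co-cultured NSC34 reads, where 6.07 and 4.86 would have been counted at the C2C12 share. TMM factors of the joint table ran from 0.697 to 0.718 in co-cultured C2C12 and from 0.835 to 1.38 in co-cultured NSC34. With library totals in place of TMM scaling the edgeR adjusted p-values were 0.0112 and 0.0318, the largest over 3 alternatives. The size of these p-values thus depended on the scaling. Among control libraries the TMM factors ran from 0.688 to 0.737 in C2C12 and from 1.10 to 7.87 in NSC34. The highest was that of NSC34 control 1, with 88 reads. Between control lines Lrp1 passed (edgeR adjusted p = 0.000252), but not with library totals (0.443). Lpl did not (0.0560), and Lrpap1 had 0.0266 but 0.987 with library totals and 0.0517 without the shallow libraries.

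**Figure D5:**
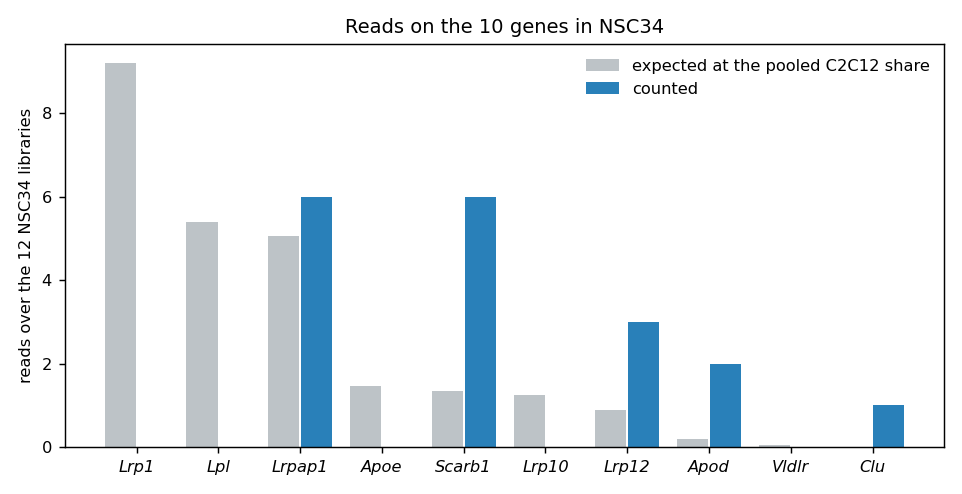
Reads on the 10 genes over the 12 NSC34 libraries together (vertical axis): grey bars on the left give the reads that the pooled C2C12 share would yield at the NSC34 depth of 70865 reads, and blue bars the reads counted. Lrp1 and Lpl have 0 reads where 9.21 and 5.40 were expected; Scarb1 and Lrpap1 have 6 each, and Apoe has 0 of 1.46.

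For the other genes the NSC34 depth allowed little. Apoe (20.5 CPM of all reads in C2C12) would have had 1.46 reads in NSC34 and Lrp10 (17.5 CPM) 1.24, so 0 reads of either gene is no detectable difference. Lrpap1 had 6 NSC34 reads (84.7 CPM of all reads, exact interval 31.1 to 184), 5 of them in co-culture 2 and 1 in co-culture 1, against 71.3 CPM in C2C12 (62.5 to 81.0). Scarb1 also had 6 NSC34 reads (84.7 CPM, 31.1 to 184), in 6 libraries, 4 co-cultured and 2 control, with 1 read each. In C2C12 Scarb1 was at 19.0 CPM (14.6 to 24.4), an interval that lies wholly below that of NSC34, but edgeR without the filter did not separate the lines (adjusted p = 0.854 in co-culture and 0.826 in controls). Lrp12 had 3 NSC34 reads (2 in co-culture 2 and 1 in control 2), Apod 2 (co-culture 2 and 6) and Clu 1 (control 3). Clu was thus the 1 member with reads in NSC34 but none in C2C12, on a single read.

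Within NSC34 the filter left 49 genes for co-culture against control, none of the 10 among them. Of those genes 0 passed in edgeR (1 at an unadjusted p under 0.05, 2.04%). Without the filter 0 of 7557 genes passed, and the 5 members with NSC34 reads had edgeR adjusted p-values from 0.518 (Lrpap1 and Clu) to 0.977 (Scarb1), on 1 to 6 reads each. Likewise 0 of 1328 genes passed the test of a difference in the co-culture effect between the lines (160 at an unadjusted p under 0.05, 12% of them), and no member was among those genes. Lrp4 had 1129 reads in co-cultured C2C12, 779 in C2C12 controls and 0 in NSC34, so the receptor that the study's title names was, like Lrp1, found in the muscle line and not detected in the neuronal line at this depth.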

How the data were processed

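Each line has 1 deposited table of unscaled read counts per Ensembl transcript, with a column for each library. The build is GRCm38, per the submitters' processing notes; no source used here names the aligner, the counter, the annotation release or a strand setting. Names and positions came from GENCODE M21, which matched 37415 of 37677 C2C12 and 10374 of 10427 NSC34 transcripts; 0 columns were left unmatched, and unmatched transcripts stayed in the totals. Counts were summed per gene. A table lists only features with reads, so Clu, with no row in C2C12, was taken as 0.

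Tests used edgeR 4.0.16 in R 4.3.3 (filterByExpr, TMM, quasi-likelihood, all genes), within each line and, over all 24 libraries, between lines. The filter left 2570 C2C12, 49 NSC34 and 1328 joint genes. A two-sided exact permutation test compared CPM of all reads. Tested on simulated data at C2C12 depth, edgeR found 28 of 67 genes set to 1.5-fold, 53 of 67 at 2-fold and 64 of 66 at 4-fold, and called 5 of 2370 unaltered genes. These rates cover all tested genes, not only those with as few reads as the members. At NSC34 depth it found 0 of 3 at 1.5-fold, 0 of 3 at 2-fold and 3 of 3 at 4-fold. Between control lines it found 6 of 67, 14 of 67 and 32 of 66, and called 12 of 1128 unaltered genes. Alternatives were DESeq2 1.42.0, limma-voom 3.58.1, RLE, library totals, other filters, mitochondrial genes or shallow libraries left out, a length trend removed (loess), transcripts, a replicate block and each library left out. The fits of members without a filter were added after seeing the data. All 10 members are named; so are up to 4 tested genes of each other list. The members, lists and rules were chosen with earlier results of these data known. The lists leave out 2 genes that are not reported here.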

Additional observations from a re-analysis of the deposited data

Results flagged for a closer look

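Over 25 combinations of a member and a group that held reads, 6 had 1 library far from the other 5, by a gap past Dixon's limit for 6 values. The limit is meant to flag about 1 in 20 for normally distributed values, which counts this low are not. A group with reads in only 1 library always passes it, so the 6 cannot be read as an excess. Each of the 6 rests on 1 or 2 reads against none or almost none in the rest. In NSC34 they were Apod in co-culture 6 (356 CPM of all reads), Lrp12 in co-culture 2 (66.0 CPM), Lrp12 in control 2 (245 CPM) and Clu in control 3 (249 CPM). In C2C12 they were Vldlr in co-culture 2 (1.83 CPM) and in control 3 (4.44 CPM).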

How the results depend on the processing

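None of Lpl, Lrp1 and Lrpap1 passed in C2C12 under any of the alternatives or with any of the 12 libraries left out. Lpl ran from 0.46 to 0.63 over the settings and from 0.33 to 0.63 with 1 library left out. Lrp1 ran from -0.57 to -0.29 and from -0.62 to -0.40. Lrpap1 turned to 0.057 in limma-voom and 0.012 without the filter, and ran from -0.20 to 0.15 with 1 library left out. Its difference in CPM ran from -6.39 to 6.53 in the exact test, and that of Lrp12 from -0.99 to 4.58. Without the filter and with 1 library left out, Lrp12 ran from -0.024 to 0.47 and Vldlr from -1.24 to 1.16. Between co-cultured lines, Lrpap1 was -0.65 with library totals and Lrp12 4.06 without NSC34 co-culture 2, where no NSC34 read was left. The 37 C2C12 calls became 58 with library totals (23 higher and 35 lower, against 21 and 16), 6 without shallow libraries, 67 with DESeq2, 106 without a filter and 10 over transcripts, and 11 to 74 with 1 library left out. The 0 calls in NSC34 stayed 0 in 9 settings and ran from 0 to 1 with 1 library left out. Between control lines, the 536 calls (459 higher and 77 lower) became 304 with library totals (160 and 144), 286 without shallow libraries and 298 to 880 with 1 library left out. Between co-cultured lines, 694 calls (469 and 225) became 685 with library totals (333 and 352) and 432 to 947 with 1 library left out, and the 0 calls of the difference between lines ran to 10. The cause of these shifts was not tested. Same-numbered libraries did not deviate together (r from -0.05 to 0.10 in C2C12); with the replicate number as a block the calls were 26 in C2C12, 0 in NSC34, and 536, 678 and 0 between lines. NSC34 depth limits all its values.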
